A study of Rattus norvegicus with 7 samples.

Results

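The connexin genes Gja1, Gjb2 and Gjb6 and the pannexin gene Panx1 were followed in cultured spinal cord cells of the rat through 72 hours of cyclic tensile stress. All probe sets to which the platform annotation assigned exactly one of these symbols were taken. These were 8 of the 31042 probe sets on the array (controls left out), or 4 of 14217 genes with a symbol of their own, with 3 for Gja1, 1 for Gjb2, 1 for Gjb6 and 3 for Panx1. The genes were chosen with their signals on these same arrays already known. Their values are therefore given as a description, without a test. The cells came from the spinal cords of Sprague-Dawley embryos at day 15 of gestation, freed of meninges and dorsal root ganglia, and were loaded 3 days after seeding on flexible membranes with a strain of 10% at 0.5 Hz. RNA was taken before loading (0 hours) and 6 times during it, first after 2 hours and last after 72, and that of 5 animals was combined for a single array at each time, giving 7 arrays in all. Unloaded cells of the later times were not analysed here, so that time under stress and time in culture cannot be told apart. In a mixed culture, fewer cells of a type and less RNA per cell cannot be told apart either.

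Connexins are membrane proteins that assemble into hexagonal hemichannels, and the hemichannels of neighbouring cells dock to form gap junctions, through which ions and small metabolites pass. Gja1 encodes Cx43, a main gap junction protein of astrocytes which is also made by fibroblasts and meningeal cells, and Gjb6 encodes Cx30, a partner of Cx43 in mature astrocytes. Gjb2 encodes Cx26, known in the central nervous system mainly from the leptomeninges. Panx1 encodes a channel protein unrelated to connexins in sequence, which releases ATP from cells in response to stretch, to the purinergic receptor P2rx7 and to cleavage by caspases. Gap junctions of astrocytes and ATP release are both known from the spread of calcium waves and of damage after injury of the spinal cord.

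In the rat assembly GRCr8, used here for names, gene order and promoters, Gjb2 and Gjb6 are next to each other on chromosome 15 with 0 annotated genes between them. Gja1 is on chromosome 20 and Panx1 on chromosome 8. Windows of 300 bases are shown for Gjb2 and Gjb6, the neighbouring genes with similar time courses, and for Gja1, whose time course differed. They were taken to run from 250 bases before to 50 after the annotated start in RefSeq. This was the commonest offset among entries on the plus strand (9695 of 16841), and it was not checked on the minus strand. The distances from the start given below rest on it. Gjb2 lies at chr15:35381904-35382203 on the minus strand, Gjb6 at chr15:35410089-35410388 on the minus strand and Gja1 at chr20:36302314-36302613 on the plus strand. Capitals mark every match, on either strand, to TTAAAAG, to the GC box GGGCGG, to the E box CAGGTG or to the AP-1 site TGANTCA, 4 motifs that were chosen after the sequences had been read.
Gjb2: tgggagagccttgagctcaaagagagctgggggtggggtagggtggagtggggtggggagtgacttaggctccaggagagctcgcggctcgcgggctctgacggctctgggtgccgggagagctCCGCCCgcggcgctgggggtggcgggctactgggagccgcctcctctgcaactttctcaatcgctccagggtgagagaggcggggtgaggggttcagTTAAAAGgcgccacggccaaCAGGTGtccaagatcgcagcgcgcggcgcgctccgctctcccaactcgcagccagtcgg
Gjb6: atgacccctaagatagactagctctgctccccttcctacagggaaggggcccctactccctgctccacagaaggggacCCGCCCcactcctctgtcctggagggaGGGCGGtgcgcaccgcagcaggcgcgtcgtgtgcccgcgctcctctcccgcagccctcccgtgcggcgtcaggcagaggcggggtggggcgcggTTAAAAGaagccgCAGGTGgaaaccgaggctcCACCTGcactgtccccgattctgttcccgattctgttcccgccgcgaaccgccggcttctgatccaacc
Gja1: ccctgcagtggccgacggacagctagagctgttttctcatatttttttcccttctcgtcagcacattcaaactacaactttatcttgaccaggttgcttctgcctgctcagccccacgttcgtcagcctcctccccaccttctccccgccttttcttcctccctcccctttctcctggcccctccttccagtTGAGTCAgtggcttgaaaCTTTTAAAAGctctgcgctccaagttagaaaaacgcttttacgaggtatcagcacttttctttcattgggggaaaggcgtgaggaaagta
The windows of Gjb2 and Gjb6 both held TTAAAAG upstream of the start, with its first base 29 bases before it in Gjb2 and 51 bases before it in Gjb6. Both also held CAGGTG, which lay 9 bases before the start of Gjb2 and, as 2 matches, 38 and 19 bases before that of Gjb6. TTAAAAG was found in Gja1 too, in 2 overlapping matches on opposite strands that begin 40 and 37 bases before the start, so that it was not particular to the 2 neighbours. The AP-1 motif was found in Gja1 alone of the 3 windows, 58 bases before the start. The Panx1 window held GGGCGG once and none of the other motifs. Of 33469 windows of this length in the table, 5.3% held TTAAAAG, 33.1% GGGCGG, 18.8% CAGGTG and 7.33% TGANTCA. A second annotated start of Gjb6 had GGGCGG as its only match. These are matches of letters and no measurement of binding.

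The deposited values are MAS5.0 signal intensities, scaled by the authors so that the trimmed mean of each array was close to 500. A time point was called past the threshold, as in the methods of the study, when its signal was at least 2-fold higher or lower than at 0 hours and the difference was 200 units or more. This threshold sets a size and tests nothing. Between 42.5% and 44.3% of probe sets per array had a signal below 100, where a MAS5.0 signal is close to the floor and ratios have a weak basis. For beta-actin the 3' control probe set had 2.62 times the signal of the 5' one on the 72 hour array and 1.82 times on the 0 hour array, and for Gapdh it had 1.16 times at 72 hours and 1.09 times at 0 hours. The part of these changes in the values below was not tested.

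Gjb2 was lower on each later array than on the array before it. Its probe set (1373386_at) had a signal of 2400.3 at 0 hours, 1937 at 2, 859 at 6, 839 at 12, 686 at 24, 201 at 48 and 124 at 72 hours. The highest signal was that of the unloaded cells and the lowest that of the last array, and no array was below 100. Against 0 hours the ratio was 0.807 at 2 hours, 0.358 at 6, 0.286 at 24 and 0.0515 at 72 hours. This ratio at 72 hours corresponded to a signal 19.4-fold lower, and among 17709 probe sets whose signal averaged 100 or more, 4 (0.0226%), Gjb2 included, had a ratio this low or lower. The probe set was past the threshold, as lower, on the 5 arrays from 6 hours on. By the same rule 1.22% of all probe sets were lower at 6 hours, 1.71% at 12, 1.31% at 24, 3.05% at 48 and 3.54% at 72 hours.

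Gjb6 had a similar course at weaker signals. Its probe set (1368577_at) gave 300.2 at 0 hours, 204 at 2, 104 at 6, 107 at 12, 88.5 at 24, 29.7 at 48 and 52.3 at 72 hours. The last 3 arrays were thus below 100. Its ratio to 0 hours was 0.680 at 2 hours, 0.348 at 6, 0.295 at 24, 0.0989 at 48 and 0.174 at 72 hours, and it was past the threshold on the last 3 arrays. At 6 and 12 hours its ratio was low enough but its difference, -195.9 and -193.3 units, was short of 200. At 72 hours Gjb2 and Gjb6 were thus the 2 genes of the 4 past the threshold, both lower. Since the genes were chosen with these values known, nothing is read from that count.

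**Figure D1:**
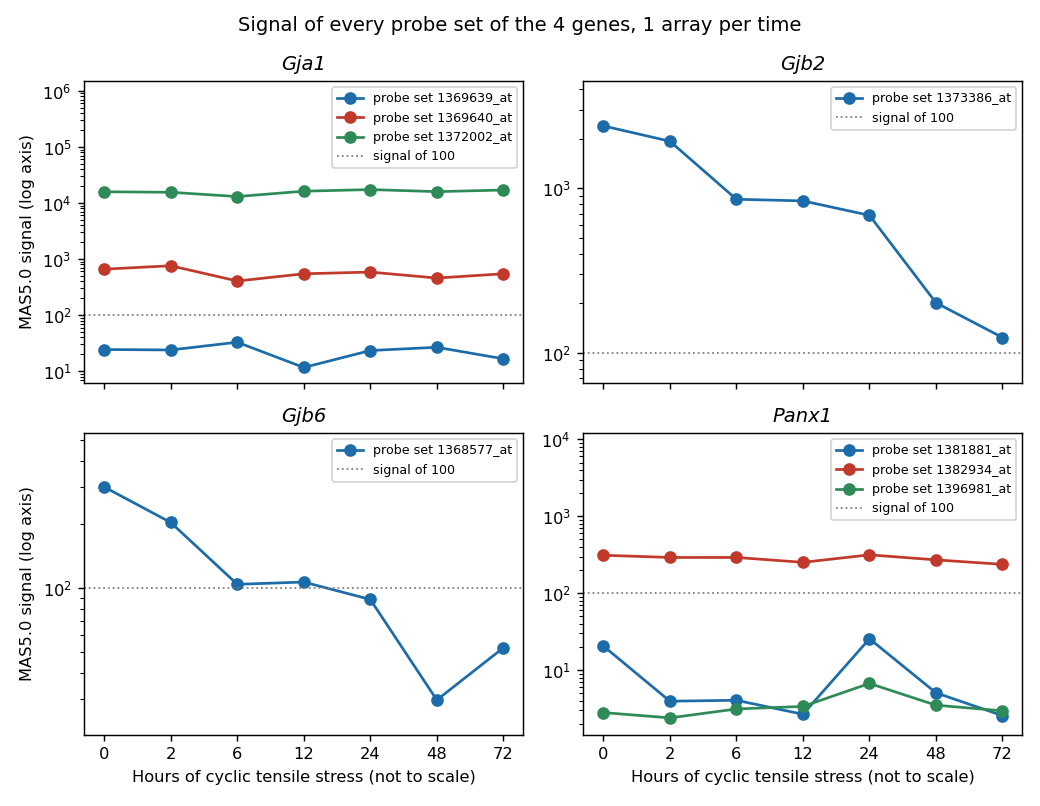
Signal (vertical axis, logarithmic, MAS5.0 units) of each probe set of Gja1, Gjb2, Gjb6 and Panx1 against the hours under stress (horizontal axis, not to scale), with 1 array per time and a dotted line at a signal of 100. Gjb2 lies at 2400.3 at 0 hours and 124 at 72 hours, Gjb6 at 300.2 and 52.3, and the brightest probe set of Gja1 stays between 13047 and 17371.

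The steps between neighbouring arrays were close for Gjb2 and Gjb6 except for the last one. From 2 to 6 hours the signal changed by a factor of 0.443 for Gjb2 and 0.511 for Gjb6, and both lay below 0.602, the lower limit of the middle 95% of tested probe sets for this step. From 6 to 12 hours the factors were 0.977 and 1.02, and from 12 to 24 hours 0.817 and 0.828, all inside that range. From 24 to 48 hours they were 0.294 for Gjb2 and 0.336 for Gjb6, against a lower limit of 0.527, but both signals of Gjb6 in this step were below 100, and its factor has a weak basis. Gjb6 reached a mean signal of 100 through its 0 and 2 hour arrays. The last step set the genes apart, with a factor of 0.614 for Gjb2, just inside the lower limit of 0.612, and of 1.76 for Gjb6, above the upper limit of 1.61, although the signals of Gjb6 at 48 and 72 hours were both near the floor. In the order of its signals, the 6 and 12 hour values of Gjb2 were next to each other, as were those of Gjb6, and with 1 array at each time their order cannot be told from array error. Over the 7 arrays log2(signal + 32) of the 2 genes had a Pearson correlation of 0.94 and a Spearman correlation of 0.93. Other genes had higher Pearson correlations, up to 0.996 with Gjb2 and 0.994 with Gjb6, so that this likeness was not particular to the neighbours. The brightest probe set of Panx1 had Pearson correlations of 0.69 with Gjb2 and 0.56 with Gjb6. These are descriptions over arrays that share a scaling and a time axis.

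**Figure D2:**
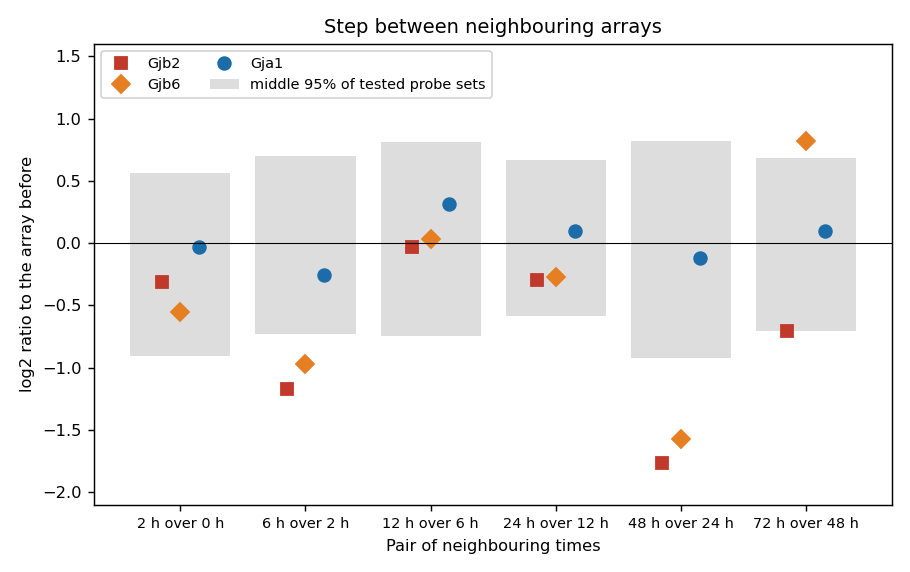
Log2 ratio of the signal on each array to that on the array before it (vertical axis) for Gjb2, Gjb6 and the brightest probe set of Gja1, by pair of neighbouring times (horizontal axis), with grey bars for the middle 95% of tested probe sets. Gjb2 and Gjb6 lie below the bar for 6 over 2 hours and for 48 over 24 hours, Gjb6 lies above the bar for 72 over 48 hours, and Gja1 lies inside every bar.

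Gja1 was read by 2 probe sets, of which the brighter varied less. Its brightest probe set (1372002_at) had 15869 at 0 hours, 15545.5 at 2, 13047 at 6, 16250.4 at 12, 17371 at 24, 15959 at 48 and 17045 at 72 hours. The highest array was 1.33 times the lowest, and the ratio to 0 hours ranged between 0.822 at 6 hours and 1.09 at 24 hours. A second probe set (1369640_at) gave 659.7, 759.5, 406, 546, 586, 458 and 546 over the same times, also with its lowest value at 6 hours, where its ratio was 0.615, and with a ratio of 0.694 at 48 hours. Its highest array was 1.87 times its lowest. At 72 hours the ratio was 1.07 in the first probe set and 0.828 in the second. The first was thus slightly higher and the second slightly lower than at 0 hours, and neither passed the threshold at any time. The third probe set of Gja1 lay between 11.6 and 32.8 on all 7 arrays and gives no usable ratio. Over the arrays the brightest probe set of Gja1 had a Pearson correlation of -0.31 with Gjb2 and of -0.19 with Gjb6, and Spearman correlations of -0.68 and -0.46.

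Panx1 was read by 1 of its 3 probe sets. Probe set 1382934_at had a signal of 312 at 0 hours, 292 at 2, 292 at 6, 252 at 12, 315 at 24, 271 at 48 and 237 at 72 hours. All values lay within a factor of 1.33, with the highest at 24 hours and the lowest at 72 hours, where the ratio was 0.762. This was inside the middle 95% of tested probe sets, 0.296 to 2.83 at 72 hours, and 25.6% of them had a ratio as low or lower. The other 2 probe sets lay between 2.56 and 25.6 and between 2.40 and 6.72, too low to be read. With 1 array at each time, neighbouring values of Gja1 or Panx1 cannot be separated from array error.

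**Figure D3:**
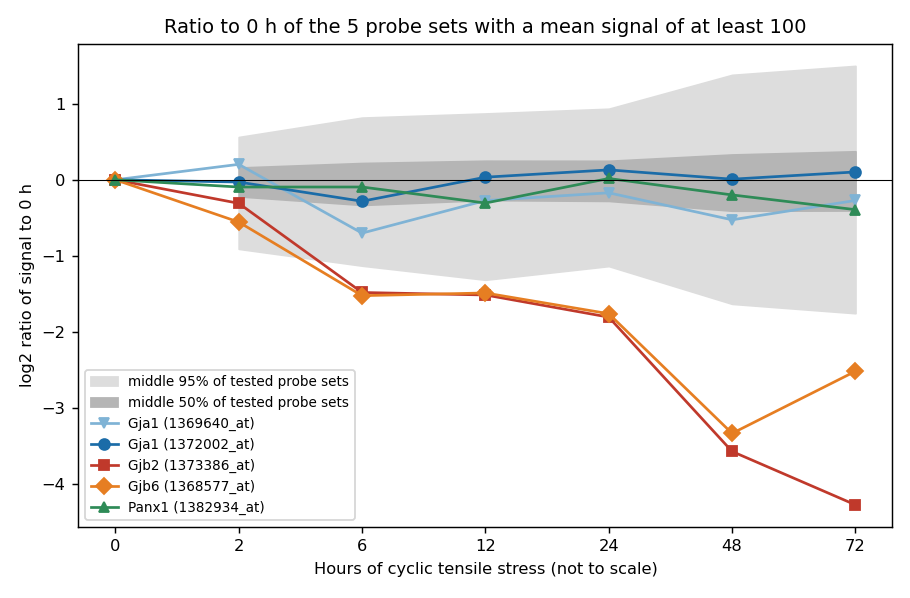
Log2 ratio of signal to the 0 hour array (vertical axis) of the 5 probe sets of the 4 genes with a mean signal of at least 100, by hours under stress (horizontal axis, not to scale), with grey bands for the middle 50% and 95% of 17709 tested probe sets. Gjb2 and Gjb6 leave the 95% band from 6 hours on, while Gja1 and Panx1 stay inside it at all times.

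The genes closest to each of the 4 in the shape of their time course were ranked by the Pearson correlation of log2(signal + 32) over the 7 arrays, among 3022 probe sets with a single symbol, a mean signal of at least 100 and a range of at least 1 on the log2 scale. For Gjb2 these were Fscn1, an actin-bundling protein, Cavin3, a protein of caveolae, Sptssa, a subunit of serine palmitoyltransferase, the tubulin Tubb5 and the inflammatory caspase Casp4. Their correlations were at least 0.99. Their ratios of 72 to 0 hours lay between 0.301 (Cavin3) and 0.436 (Casp4), so that they matched the shape of Gjb2 but not the size of its decline. For Gjb6 they were Maged2, the lipoprotein receptor Vldlr, the transcription factor Tfap2b, Rsrc1 and the mitotic kinesin Kif23, with correlations of 0.99 and ratios of 0.252 (Kif23) to 0.497 (Maged2). For Gja1 they were Ntrk2, the receptor of brain-derived neurotrophic factor, Aqp4, the water channel of astrocyte endfeet, and the zinc finger genes Sall1, Zfp608 and Zfp62, with correlations of 0.93 to 0.96. Like Gja1 these genes had a low value at 6 hours. Aqp4, in the probe set ranked here, had 286 at 6 hours and 576 at 0 hours, and Ntrk2 457 at 6 hours and 819.6 at 0 hours. For Panx1 they were Chst1, Pigbos1, Echdc2, Irf8, a transcription factor of microglia and macrophages, and the glutamate transporter Slc1a1, with correlations of 0.89 to 0.92 and ratios of 0.179 to 0.490. For Panx1 and for the brightest probe set of Gja1 the highest array was only 1.33 times the lowest. Every candidate had to vary more than that, so that the genes named for Gja1 and Panx1 matched their shape but not their size of change. With 7 points and 3022 candidates these correlations describe the shape and were not tested.

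A change with hours was tested for genes other than the 4, with limma fitted to log2(signal + 32) of all 17709 probe sets that averaged 100 or more and Benjamini-Hochberg adjustment over all of them. By this test 15% of the probe sets rose and 14.1% fell at an adjusted p under 0.05. Fitted changes below are slopes times 72 hours on that log2 scale. The spread is that around a straight line in time and not between replicate cultures.

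Most other connexins and pannexins gave signals close to the floor. Of 19 such genes listed, 9 had a probe set of a single symbol, and 7 of these were below 100 both at 72 hours and at 0 hours. Gjc1, which encodes Cx45, had signals of 396, 349, 295, 317, 288, 265 and 398 from 0 to 72 hours, and Gja4, a connexin of endothelium, had 162, 158, 214, 152, 154, 135 and 129.6. Neither passed the test, with a fitted log2 change of 0.01 (SE 0.23, adjusted p = 0.974) for Gjc1 and of -0.37 (SE 0.22, adjusted p = 0.227) for Gja4 from limma. None of the 2 tested genes passed at an unadjusted p under 0.05 either. Gja3, the next connexin to Gjb2 along chromosome 15 with 1 gene between them, lay between 15.6 and 52.1 in its brighter probe set, so that the course of the third connexin in this cluster could not be read. Gja5 lay between 44.0 and 83.8 in its brighter probe set, and Gja6 between 8.80 and 38.0. Gjb1, the Schwann cell and oligodendrocyte connexin Cx32, lay between 2.04 and 38.1, Gjb5 between 4.48 and 17.4, the neuronal connexin Gjd2 between 2.89 and 35.1, and Panx3 between 0.960 and 22.5. The other 10 listed genes were not analysed here.

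Most genes of the junction scaffold and of channel regulation did not pass the test of a change with hours. Of 23 tested genes of 26 named, 2 rose, 4 fell and 17 did not pass (8.70% and 17.4%, against 15% and 14.1% of all tested probe sets). The median log2 difference of 72 from 0 hours was -0.02, and it was -0.0040 over all tested probe sets. Tjp1, which encodes ZO-1, the scaffold that binds the tail of Cx43, rose to 4866 at 72 hours, against 2806 at 0 hours (log2 change 0.81, SE 0.16, adjusted p = 0.00580 from limma). Ctnnd1, the cadherin-binding p120 catenin, rose to 602 at 72 hours, against 441 at 0 hours. Ocln (occludin), of tight junctions, fell to 173 at 72 hours, against 525 at 0 hours (log2 change -1.64, SE 0.20, adjusted p = 0.000673 from limma). Cdk1, the mitotic kinase, fell to 544 at 72 hours, against 1344 at 0 hours, and Hspa5, a chaperone of the endoplasmic reticulum, to 7063 at 72 hours, against 10478 at 0 hours. Camk2d, a calmodulin-dependent kinase, fell to 3843 at 72 hours, against 4507 at 0 hours. The count that rose was 1 when any one of the 0, 2, 6, 24 or 48 hour arrays was left out and 0 when the 72 hour array was.

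In the list of ATP release and purinergic signalling, the pathway in which Panx1 acts, more genes fell than did not pass. Those that fell were receptors, enzymes of nucleotides and adenosine, and inflammasome genes. No channel of ATP release was among them. Of 17 tested genes of 27 named, 11 fell, none rose and 6 did not pass by limma, and at an unadjusted p under 0.05 the counts were 12 and none. The share that fell was 64.7%, where 14.1% of all tested probe sets fell and 15% rose. The median log2 difference was 0.18 at 6 hours and -0.63 at 72 hours, when that of all tested probe sets was -0.04 and -0.0040. Of the receptors, P2ry6, a receptor for UDP, fell to 132 at 72 hours, against 598 at 0 hours (log2 change -2.16, SE 0.30, adjusted p = 0.00123 from limma), and P2ry12, an ADP receptor of microglia, to 74.8 at 72 hours, against 308 at 0 hours. P2rx4, an ATP-gated channel, had 3341 at 6 hours and fell to 1459 at 72 hours, against 2206 at 0 hours. P2ry2, a receptor for ATP and UTP, had 2517 at 6 hours and was higher at 72 hours, with 1311, than at 0 hours, with 1081, and did not pass. P2rx7, the channel that acts with Panx1, lay between 37.3 and 117.5 and was too low to be tested. Of the enzymes that degrade nucleotides and adenosine, Ada (adenosine deaminase) fell to 240.2 at 72 hours, against 978 at 0 hours (log2 change -2.23, SE 0.23, adjusted p = 0.000277 from limma). Nt5e, the ecto-enzyme that makes adenosine from AMP, fell to 668 at 72 hours, against 1037 at 0 hours, with 1994 at 6 hours. Of the inflammasome genes, which act downstream of P2rx7, Pycard fell to 913 at 72 hours, against 2286 at 0 hours, and Il18 to 255 at 72 hours, against 1006 at 0 hours. The caspase Casp1 fell to 434 at 72 hours, against 688 at 0 hours. Il1b had 339 at 72 hours and 311 at 0 hours, and the volume-regulated anion channel gene Lrrc8a 3608 at 72 hours and 3091 at 0 hours, and neither passed. P2ry2, P2rx7, Pycard, Il18, Il1b and Lrrc8a were chosen for mention after their values were seen. Without the 72 hour array 7 of the 17 fell. In the list of microglia and macrophages, cells known to express P2ry6, P2ry12, P2rx4, Pycard and Il18, 7 of 10 tested genes fell, and the summed signal of its 11 named genes was 49763 at 0, 62567 at 6 and 28859.5 at 72 hours. Cx3cr1, a defining marker of microglia, was below 100 on every array. The part of microglia in the result was not tested.

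**Figure D4:**
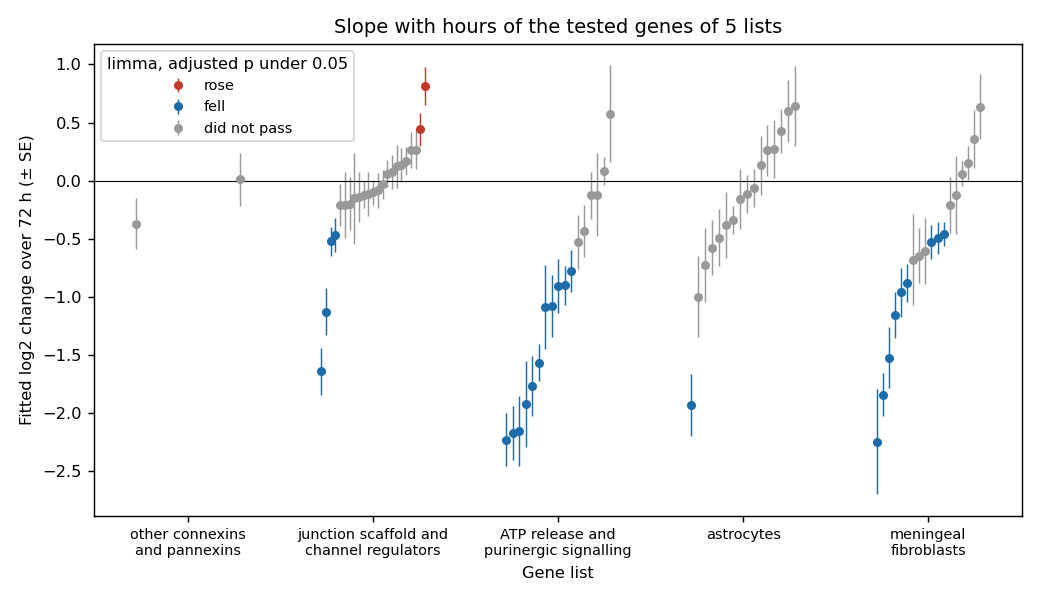
Fitted log2 change over 72 hours (vertical axis, ± SE) of each tested gene of 5 lists (horizontal axis), with genes that rose in red, genes that fell in blue and genes that did not pass in grey (limma, adjusted p under 0.05). In the list of ATP release and purinergic signalling 11 of 17 genes fell, and among the other connexins and pannexins neither of 2 tested genes passed.

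Markers of the cell types in which Gjb2, Gjb6 and Gja1 are known were read on the same arrays. Of 16 tested astrocyte genes 1 fell, none rose and 15 did not pass by limma (5 and 2 at an unadjusted p under 0.05). The share that fell was 6.25%, against 14.1% of all tested probe sets. Their median log2 difference was -0.54 at 6, 0.13 at 24 and -0.24 at 72 hours. The gene that fell was the neurotensin receptor Ntsr2, with 63.1 at 72 hours and 339.8 at 0 hours. The count that fell was 3 with the 6 hour array left out and 2 with the 0 hour array left out. Gfap had 5960.2 at 72 hours and 9579 at 0 hours and did not pass (adjusted p = 0.154 from limma). Further genes that did not pass lay on both sides of their 0 hour signal. The 72 hour ratio was 1.31 for Slc1a3, 1.23 for S100b and 1.22 for the brightest probe set of Aqp4. It was 0.614 for Aldoc and 0.431 for Mlc1. The summed signal of the 19 named astrocyte genes lay between 65250.0 at 6 hours and 85166 at 24 hours, the times at which the brightest Gja1 probe set was also lowest and highest. At 72 hours the courses differed. The sum was then 67291, against 77125 at 0 hours, while that probe set had 17045, against 15869 at 0 hours. A few bright genes weigh most in the sum, such as Vim, with 18331 at 72 hours and 22170 at 0 hours. It is therefore not the course of the list as a whole. The second Gja1 probe set was highest at 2 hours. Kcnj10, a potassium channel of mature astrocytes, was below 100 on all arrays. Of 18 tested genes of meningeal fibroblasts 9 fell, none rose and 9 did not pass (10 and 1 at an unadjusted p under 0.05). The share that fell was 50%, against 14.1% of all tested probe sets, and 4 genes fell when the 72 hour array was left out. With the 48 hour array left out 1 of them rose. Their median log2 difference was -0.34 at 6 hours and -0.62 at 72 hours, where that of Gjb2 was -1.45 and -3.97 and that of Gjb6 -1.29 and -1.98. At 0 hours 19 of the 21 named genes of this list had a signal of at least 100, as did 57.5% of all probe sets, and the transporter Slc22a6 had 11.6. Several of the genes, such as the collagens, Igf2 and Pdgfra, are known from mesenchymal cells in general. The retinaldehyde dehydrogenase Aldh1a2 fell to 416 at 72 hours, against 1364 at 0 hours, Crabp2, a retinoic acid binding protein, to 755, against 2206, and the transporter Slc47a1 to 13.6, a value at the floor, against 109. Slc47a1 had first been higher, with 188 at 2, 333 at 6 and 189 at 12 hours. The collagen genes Col1a1 and Col1a2 fell, Col1a1 to 12453 at 72 hours, against 17373 at 0 hours, and Col1a2 to 12181 at 72 hours, against 16985 at 0 hours, while Col3a1 had 22458 at 72 hours and 21328.5 at 0 hours and did not pass. Islr fell to 1706 at 72 hours, against 2838 at 0 hours. Other genes of the list went the other way without passing. Dcn had 11059 at 72 hours and 5967 at 0 hours, and the 72 hour ratio was 1.12 for Pdgfra and 1.09 for Zic1. The summed signal of this list lay between 80255 and 112719. The part of any cell type in the courses of Gjb2, Gjb6 and Gja1 was not tested.

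**Figure D5:**
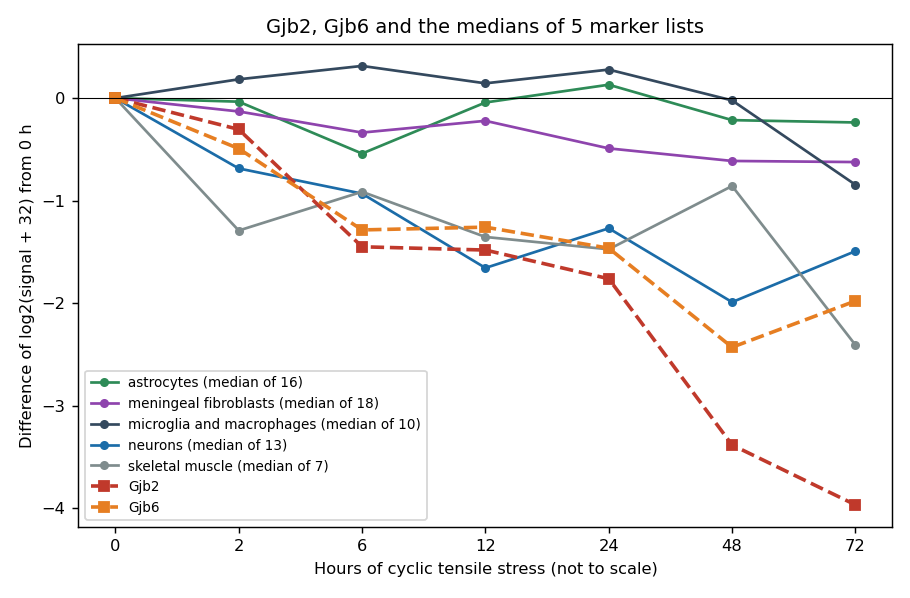
Difference of log2(signal + 32) from 0 hours (vertical axis) of Gjb2 and Gjb6 (dashed) and the median over the tested genes of 5 marker lists (solid), by hours under stress (horizontal axis, not to scale). At 72 hours Gjb2 lies at -3.97 and Gjb6 at -1.98. The astrocyte median lies at -0.24, the meningeal median at -0.62 and the median of microglia and macrophages at -0.84. The neuronal median lies at -1.49 and that of skeletal muscle at -2.41, below Gjb6.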

How the data were processed

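Total RNA of 5 pooled animals per time was hybridised by the authors to 1 Affymetrix Rat Genome array at each of 7 times, and the signal intensity of each probe set was calculated in GCOS with MAS 5.0 and scaled globally. The deposited intensities are linear, with a trimmed mean of 500.1 to 500.2 per array. The platform annotation of 2016 gave a single symbol to 20826 probe sets and several to 436, while 9780 were not named here, and 57 controls were left out. Each listed gene was read from the brightest, on average, of its named probe sets. Slopes with hours were tested with limma 3.58.1 in R 4.3.3 (eBayes with an intensity trend, 5 residual degrees of freedom) on log2(signal + 32). On simulated data over 17709 probe sets it found 92% of simulated log2 changes of 2 and 54% of those of 1. Only a small part of the simulated probe sets carried a change, and their noise was independent. In the data many more probe sets passed, so that these shares do not carry over to it. Other values were computed in Python 3.11.15. All 4 members matched RefSeq by symbol.

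The members, gene lists and tests were chosen with earlier results of these data known. The genes named were all probe sets of the members, all other connexins and pannexins with a named probe set, up to 3 genes at each end of the 72 hour ratio per tested list among those that passed, the 5 genes most like each member and fixed markers. Other genes named in the lists were chosen after their values were seen. Alternatives were scaling to the same median, quantile normalization, a pseudocount of 64, no filter on signal, log2(hours + 1), the mean of 0 and 2 hours as baseline, other thresholds and each array left out in turn.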

Additional observations from a re-analysis of the deposited data

How the results depend on the processing

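No paired analysis was possible because each time has 1 array and the labels give no replicate. The number of arrays and signals near the floor limit every value. The 72 hour ratio stayed between 0.0487 and 0.0570 for Gjb2, 0.174 and 0.208 for Gjb6, 1.05 and 1.13 for Gja1 and 0.762 and 0.801 for Panx1 over the scalings and baselines. With the mean of 0 and 2 hours as baseline the 72 hour ratio of Gjb6 was 0.208 with a difference short of 200, so that it no longer passed the threshold. At 6 hours Gjb2 (0.358) did not pass a threshold of a ratio of 3, and Gjb6 (0.348) passed one of 1.5 with a difference of 100.

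Of the junction genes 1 rose, in place of 2, under median scaling, quantile normalization, no filter and log2(hours + 1). With log2(hours + 1), 7 purinergic genes fell in place of 11 and 2 astrocyte genes in place of 1. Of the astrocyte genes 2 fell under median scaling and 3 under quantile normalization. The causes were not tested. With each array left out in turn, the counts that rose and fell were 1316 to 2766 and 1276 to 2574 over all probe sets, in place of 2650 and 2493. Both were lowest with the 72 hour array left out, and with the 48 hour array left out they were 1646 and 1604. Likewise 0 to 2 junction genes rose and 3 to 4 fell, 0 purinergic genes rose and 7 to 11 fell, 0 astrocyte genes rose and 1 to 3 fell, 0 to 1 meningeal genes rose and 4 to 10 fell, and 0 other connexins and pannexins rose or fell. Under log2(hours + 1) 1957 probe sets rose and 2106 fell. Of 100 counts and ratios recomputed under the alternatives that left out no array, 89 stayed within 1.5 times the count or on the same side of the threshold, 8 counts did not, and 3 ratios crossed the threshold, as given above. The 89 include counts of 0 that stayed 0 and the ratios of Gja1 and Panx1, which passed no threshold in any setting. Some of the ratios were the same value judged at another threshold. The 89 is thus no measure of how firm the other counts are. These counts do not say which genes passed.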

Other observations

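The other marker lists gave these values on the same arrays. By the same test 15% of all tested probe sets rose and 14.1% fell. Lists of 3 to 7 tested genes with 1 call or none are too short to be set against these shares. Of 13 tested neuronal genes 4 fell and none rose by limma (8 and none at an unadjusted p under 0.05). Their median log2 difference was -0.69 at 2, -0.93 at 6 and -1.49 at 72 hours. The neuronal tubulin Tubb3 fell to 379 at 72 hours, against 1771 at 0 hours, and Rbfox3, the NeuN gene, had 113 at 72 hours and 379 at 0 hours and did not pass. Of 7 tested genes of skeletal muscle none rose or fell by limma (3 fell at an unadjusted p under 0.05). Their median log2 difference was nevertheless -1.29 at 2 and -2.41 at 72 hours. A straight line in hours is a weak test of a decline already large at 2 hours, for muscle and neurons alike, so that these counts do not measure its size. All 8 named muscle genes had signals of at least 100 at 0 hours, and the muscle actin Acta1 had 757 at 72 hours and 4152 at 0 hours. Muscle is not part of the labelled tissue. Of 6 tested genes of the oligodendrocyte lineage 1 fell, and Olig2 had at most 47.7. Of 3 tested endothelial genes 1 rose, and Pecam1 had at most 39.7. Of 4 tested genes of ependymal and radial cells 1 fell, and Foxj1, of ciliated cells, had at most 90.3. Of 4 tested genes of Schwann cells and neural crest 1 fell. Among the microglial genes Aif1 fell to 654 at 72 hours, against 3578 at 0 hours.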
